A study of Mus musculus with 16 samples.

Results

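The genes described here are 34 genes of the ATF4 and amino acid stress program, named by symbol from general knowledge of that program. They were chosen with earlier results of these data known, so their shares beside those of all genes are a description only. They were looked up in the liver gene table of 16 mice. All 34 were found among the 24082 genes of the table, each with its own Ensembl gene identifier. A level high enough to be tested, at least 10 normalized reads in at least 4 libraries, was reached by 32 of them and by 12537 genes in all. Phgdh and Stc2 stayed below it.

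ATF4 is a transcription factor whose protein is made when the translation factor eIF2 is phosphorylated, which happens when amino acids are scarce, unfolded proteins gather in the endoplasmic reticulum, heme is short or viral RNA is present. ATF4 then pairs with C/EBP proteins and activates genes that import and build amino acids, charge tRNAs, supply mitochondrial one-carbon units and restore translation. In liver this program is known for its response to dietary amino acid supply and to mitochondrial stress. Because eIF2 acts on translation, the mRNA of Atf4 itself is an incomplete measure of the amount of ATF4 protein, and no protein was measured in these files.

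Liver RNA was sequenced from female C57Bl6/J mice in a 2-by-2 layout with 4 mice in each group. Pair Vehicle mice received a control liquid diet, Pair IMC mice the same diet with iodomethylcholine (IMC, an inhibitor of the gut bacterial enzyme that cleaves choline to trimethylamine) at 0.06% by weight, EtOH Vehicle mice the Lieber-DeCarli ethanol diet, and EtOH IMC mice the ethanol diet with the same amount of IMC. The study's methods give mice of 9 to 11 weeks, 25 days of feeding and a stepwise increase of ethanol to a final 6% by volume, with pair-fed mice given maltose dextrin in place of the ethanol calories. The study asked how the inhibitor alters the response of the liver to ethanol.

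Several features of the design bear on every comparison. The mice given both ethanol and IMC also ate less of the liquid diet and had lower body weights, as the study reports. Their food, ethanol and inhibitor intake therefore cannot be told apart. A figure legend of the study also marks a difference in body weight between pair-fed mice with and without IMC. The labels number the libraries from 1 to 16. EtOH Vehicle and Pair IMC carry the numbers up to 8 and the remaining groups those from 9. Whatever goes with that division cannot be told apart from any comparison of 2 groups or from the difference between the IMC effects. Only the effects averaged over the other factor are balanced over that division. All ethanol-fed libraries have odd numbers and all pair-fed libraries even ones. Whatever goes with odd against even numbers therefore cannot be told apart from ethanol, also on average. The libraries held 9632659 to 12601199 reads on genes. Whole liver was sequenced, so a larger share of a cell type and more RNA per cell cannot be told apart. Alb, Ttr and the other hepatocyte markers were high in all 16 livers. No tested marker of hepatocytes, Kupffer cells or neutrophils passed in an IMC comparison, with 2 of the 4 neutrophil markers tested. The 4 pancreas markers summed to 5.85 to 16.4 normalized reads in Pair IMC and to at most 4.07 in the other groups. The 4 T and B cell markers summed to at most 51.9 in any liver. Among 5 stellate cell markers Reln alone passed for IMC in ethanol-fed mice, where it was lower (log2 -1.26), and none passed for IMC in pair-fed mice. Averaged over both diets IMC was accompanied by lower Reln and Lrat. With ethanol Lrat was higher under both treatments, Dcn was higher in vehicle mice and Reln was lower in IMC mice, and Lrat and Col1a1 were higher on average. The 5 summed to 3883 to 4579 normalized reads in EtOH Vehicle, 2521 to 3317 in EtOH IMC, 2714 to 3681 in Pair Vehicle and 2734 to 3388 in Pair IMC. The bile duct marker Krt7 was lower with IMC in pair-fed mice (log2 -1.52), where all 5 bile duct markers had negative differences. The 5 summed to 708 to 1209 normalized reads in Pair Vehicle and 611 to 694 in Pair IMC. In EtOH Vehicle they summed to 598 to 845 and in EtOH IMC to 551 to 710. Of 5 sinusoidal endothelial markers Clec4g was higher with ethanol in IMC mice (log2 0.38), and Clec4g, Lyve1 and Kdr were higher with ethanol on average. They summed to 2241 to 2885 normalized reads in Pair Vehicle, 2322 to 2851 in Pair IMC, 2723 to 3134 in EtOH Vehicle and 2407 to 3197 in EtOH IMC. Of 6 hepatocyte markers Tat was higher and Apoa1 lower with ethanol on average. The 6 summed to 1.06e+06 to 1.72e+06 normalized reads in Pair Vehicle and 1.55e+06 to 1.67e+06 in Pair IMC. In EtOH Vehicle the sums were 9.83e+05 to 1.12e+06 and in EtOH IMC 9.05e+05 to 1.21e+06. Both ethanol groups thus lay below Pair IMC without overlap. Whether these shifts contribute to the results below was not tested.

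Regulatory sequence is shown first because the program is known for a shared DNA element. ATF4 and its C/EBP partners are known to bind composite elements such as TGATGCAA, of which TGATGNAA is a looser form that includes it, and TGACGTCA is the element of CREB-type factors. RefSeq windows of 300 bases, from 250 before to 50 after a transcription start on GRCm38.p6, were given for 30 of the 34 members. Aldh1l2, Cth, Eif4ebp1 and Slc7a5 had none. On either strand TGATGCAA was found for 7 of the 30 members (Atf3, Chac1, Herpud1, Jdp2, Nupr1, Pycr1 and Vldlr), against 1.03% of all 27025 genes with a window. The looser TGATGNAA added Asns, Pck2 and Trib3, which made 10 of 30 against 4.51% of all genes. TGACGTCA was found for Ppp1r15a alone, against 2.03% of all genes. Counted by window, the motifs were held by 0.895%, 3.97% and 1.79% of 32851 windows.

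The windows of 5 members whose values follow below are printed 5′ to 3′ on the strand of the gene, with the match in capitals. Asns carries the looser form on its own strand, Atf3 and Herpud1 the full form on the other strand, Pck2 the looser form on the other strand, and Ppp1r15a the CREB-type element.
Asns (chr6:7693160-7693459, minus strand): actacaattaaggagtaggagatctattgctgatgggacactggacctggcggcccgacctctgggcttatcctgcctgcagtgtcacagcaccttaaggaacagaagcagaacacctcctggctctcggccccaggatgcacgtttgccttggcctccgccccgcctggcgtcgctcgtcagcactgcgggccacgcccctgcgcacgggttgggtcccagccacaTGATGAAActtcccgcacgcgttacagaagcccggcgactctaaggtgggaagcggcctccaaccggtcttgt
Atf3 (chr1:191183284-191183583, minus strand): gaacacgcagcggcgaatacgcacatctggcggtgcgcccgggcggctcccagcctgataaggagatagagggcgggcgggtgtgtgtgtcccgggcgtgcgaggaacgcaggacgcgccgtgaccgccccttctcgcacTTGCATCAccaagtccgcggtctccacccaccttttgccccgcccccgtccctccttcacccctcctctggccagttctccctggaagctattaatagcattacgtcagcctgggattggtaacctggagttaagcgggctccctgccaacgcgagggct
Herpud1 (chr8:94386179-94386478, plus strand): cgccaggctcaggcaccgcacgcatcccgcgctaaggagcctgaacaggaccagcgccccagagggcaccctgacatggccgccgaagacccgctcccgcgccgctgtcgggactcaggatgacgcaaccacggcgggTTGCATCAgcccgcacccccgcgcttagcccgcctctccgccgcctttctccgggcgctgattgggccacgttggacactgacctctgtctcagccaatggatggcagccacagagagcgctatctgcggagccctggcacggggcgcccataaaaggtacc
Pck2 (chr14:55540016-55540315, plus strand): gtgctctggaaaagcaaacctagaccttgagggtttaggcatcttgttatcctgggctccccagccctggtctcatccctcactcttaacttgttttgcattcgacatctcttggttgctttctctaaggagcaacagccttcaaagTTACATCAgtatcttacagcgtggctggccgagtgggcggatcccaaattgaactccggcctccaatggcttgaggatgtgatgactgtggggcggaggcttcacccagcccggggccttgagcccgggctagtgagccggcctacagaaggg
Ppp1r15a (chr7:45526219-45526518, minus strand): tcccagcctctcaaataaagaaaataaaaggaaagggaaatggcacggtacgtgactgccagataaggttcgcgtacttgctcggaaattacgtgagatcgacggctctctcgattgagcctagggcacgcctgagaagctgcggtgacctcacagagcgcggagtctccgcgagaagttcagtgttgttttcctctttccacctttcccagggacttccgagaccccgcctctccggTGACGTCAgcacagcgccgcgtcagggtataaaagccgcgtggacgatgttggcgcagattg

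The match began 23 bases before the start in Asns, 110 in Atf3, 112 in Herpud1, 103 in Pck2 and 12 in Ppp1r15a. A match describes letters in these windows and not binding. In the comparisons of 2 groups described below, Asns and Ppp1r15a rose with IMC in ethanol-fed mice, Asns, Atf3 and Pck2 rose with ethanol in IMC mice, and Herpud1 fell with ethanol under both treatments. Sesn2, Slc3a2 and Slc38a2, described below with some of the clearest differences, held none of the motifs in their windows.

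Levels of the members spanned a wide range. Per kilobase of exon and averaged over the 16 livers, Cth, the enzyme that releases cysteine from cystathionine, stood first at 2293 normalized reads, followed by the transcription factor Atf5 at 1689 and Herpud1, a component of the machinery that clears misfolded proteins from the endoplasmic reticulum, at 1576. Atf4 stood sixth at 433. The 7 enzymes listed under amino acid synthesis lay at both ends of this range. Cth and the alanine aminotransferase Gpt2, at 900.2, were among the 4 highest members, whereas Psph was at 12.9, Asns at 4.74, Psat1 at 3.36, Phgdh at 2.02 and Pycr1 at 1.91 on the same per-kilobase scale.

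In each liver the tested members that exceeded their own median over the 16 mice were counted, so that 16 of 32 would lie in the middle. The 4 EtOH IMC livers had 20, 27, 27 and 21 such members. The EtOH Vehicle livers had 10 to 12, the Pair IMC livers 13 to 17, and the Pair Vehicle livers 11 to 18. All EtOH IMC livers lay above every liver of the other groups. Asns and Pycr1 reached the minimum for testing only with the EtOH IMC libraries, where they are high (Pycr1 also needed those of EtOH Vehicle), so this count was partly set by the filter. Over the 30 members without them the EtOH IMC livers had 18, 26, 25 and 19 and the other livers 9 to 17. Over all 34 members, with no filter, they had 22, 28, 27 and 23 against 11 to 19. By group mean, 18 of the 34 members were highest in EtOH IMC, 6 in Pair IMC, 5 in EtOH Vehicle and 5 in Pair Vehicle. None of these counts was made over all tested genes, so whether they are particular to the members was not tested.

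**Figure D1:**
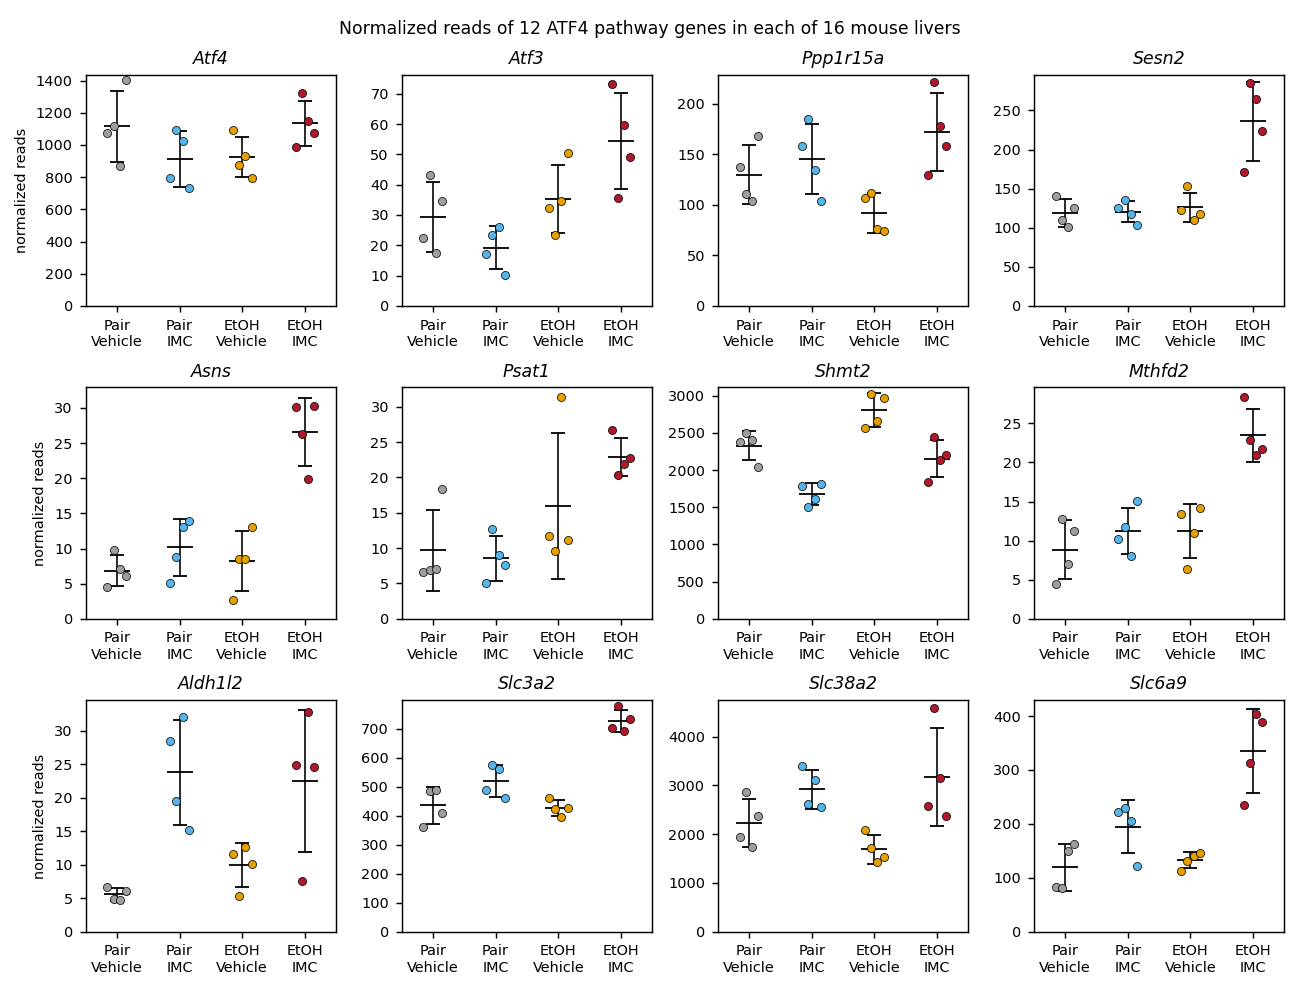
Normalized reads (vertical axis, linear from 0) of 12 members in each of the 16 livers, by group on the horizontal axis. Points are mice, the wide tick is the group mean and the bars are 1 SD. Asns, Sesn2, Slc3a2, Mthfd2 and Slc6a9 have their 4 EtOH IMC points above all 12 others, whereas Atf4 overlaps among all groups.

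Atf4 mRNA itself did not pass the test in any comparison on the scale used here. On the scale as deposited, which sets ethanol-fed libraries higher as described below, it passed for ethanol in IMC mice (log2 0.52, adjusted p = 0.0149). The Pair Vehicle livers held 1076, 1121, 868 and 1404 normalized reads and the Pair IMC livers 792, 1094, 1025 and 734. The EtOH Vehicle livers held 1093, 877, 935 and 796 and the EtOH IMC livers 989.8, 1323, 1146 and 1077. The 4 groups overlapped. The log2 difference with IMC was -0.29 (95% interval -0.61 to 0.02, adjusted p = 0.228) in pair-fed mice and 0.30 (-0.02 to 0.61, adjusted p = 0.168) in ethanol-fed mice. Between the diets these effects differed by 0.59 (0.14 to 1.03), with an unadjusted p of 0.0122 in limma and an adjusted p of 0.184.

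The first comparison asks how IMC changed these genes in livers exposed to ethanol. With IMC 9 of the 32 tested members were higher and 2 lower (limma, adjusted p under 0.05), against 10.4% of all tested genes higher and 11.1% lower. The median log2 difference of the members was 0.37, against -0.0016 for all tested genes, and 27 of 32 members lay above 0. Asns, among the 9, reached the minimum for testing only with its EtOH IMC libraries, and without it and Pycr1 the median was 0.37. The 9 that rose were the amino acid carriers Slc3a2, Slc6a9 and Slc38a2, the regulators Sesn2, Ppp1r15a and Cebpg, the enzymes Asns and Mthfd2, and the tRNA exporter Xpot. Shmt2 and Gpt2 fell.

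Of 5 transporters 3 rose. Slc3a2, the heavy chain shared by several amino acid exchangers, was 462, 422, 397 and 427 normalized reads in EtOH Vehicle and 702, 778, 692 and 735 in EtOH IMC. Every IMC liver was above every vehicle liver, by 1.70-fold on average (log2 0.77, SE 0.10, adjusted p = 8.63e-05). Slc6a9, a glycine transporter, rose 2.48-fold, from 112, 130.4, 139.9 and 146 to 235, 314, 403 and 389 normalized reads (log2 1.31, SE 0.24, adjusted p = 0.0012). These groups did not overlap either. Slc38a2, a sodium-coupled carrier of small neutral amino acids that is induced when they are withdrawn, was 2088, 1714, 1419.6 and 1534 in EtOH Vehicle and 2572, 4587, 3149.7 and 2377 in EtOH IMC. Its groups were separate, with library 11 the highest, and the fold was 1.83 (adjusted p = 0.00351). The cationic amino acid carrier Slc7a1 and the large neutral amino acid carrier Slc7a5, a partner of Slc3a2, had log2 differences of 0.02 (-0.62 to 0.66) and 0.10 (-0.21 to 0.42) and did not pass the test.

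Among the feedback and growth control genes, Sesn2, a leucine sensor that restrains mTORC1, held 123, 153, 110.2 and 118 normalized reads in EtOH Vehicle and 171, 286, 265 and 223 in EtOH IMC. All 4 IMC livers were higher (1.85-fold, log2 0.89, SE 0.16, adjusted p = 0.000871). Ppp1r15a, the subunit that directs a phosphatase to eIF2, rose 1.85-fold as well, from 107, 111, 76.3 and 73.6 to 129, 221, 178 and 158 (adjusted p = 0.00567), again without overlap. The pseudokinase Trib3, the glutathione-degrading enzyme Chac1 and the mTORC1 inhibitor Ddit4, all well-known ATF4 targets, had log2 differences of -0.16, 0.13 and 0.51 with adjusted p of 0.747, 0.913 and 0.368. Chac1 was uneven within its group, at 55.1 in library 11 and between 2.58 and 8.96 in the other EtOH IMC livers.

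Asns, which makes asparagine and is the textbook gene of amino acid scarcity, had the largest log2 difference of the 32 tested members in this comparison. It was 2.69, 8.55, 8.48 and 13.1 normalized reads in EtOH Vehicle and 30.1, 26.3, 19.9 and 30.3 in EtOH IMC. The lowest IMC liver was above the highest vehicle liver, and the fold was 3.29 (log2 1.72, SE 0.39, adjusted p = 0.00531). These are few reads: Asns reached the minimum for testing through its EtOH IMC libraries, with 3 other libraries at or above it. Of the remaining synthetic enzymes Psat1 of serine synthesis had a log2 difference of 0.65 (-0.15 to 1.45, adjusted p = 0.237), Psph 0.28 (adjusted p = 0.163) and the proline enzyme Pycr1 0.33 (adjusted p = 0.689). Gpt2, the mitochondrial alanine aminotransferase, fell from a mean of 5909 ± 1509.8 to 3912 ± 737 (SD, n = 4; log2 -0.58, adjusted p = 0.0215), with overlapping groups.

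The mitochondrial folate enzymes split. Mthfd2 rose from 11.3 ± 3.49 to 23.5 ± 3.38 normalized reads (SD, n = 4; 2.06-fold, adjusted p = 0.0293), without overlap. Shmt2, which splits serine to charge folate in the same pathway, fell from 2561, 3027, 2659 and 2975 to 1834, 2439, 2131 and 2196 (log2 -0.39, SE 0.10, adjusted p = 0.00915). Every IMC liver was below every vehicle liver. Aldh1l2, which oxidizes formyl folate in mitochondria, had a log2 difference of 0.997 (0.18 to 1.81) that did not pass in limma (adjusted p = 0.0753). It passed in edgeR with TMM (0.0396) or upper quartiles (0.0446) and in DESeq2 (0.0335). Library 11 was low at 7.63 against 24.6 to 32.9 in the other EtOH IMC livers. Pck2, the mitochondrial enzyme that makes phosphoenolpyruvate, had non-overlapping groups and a log2 difference of 0.51 (adjusted p = 0.0536). It passed in edgeR with TMM (0.0358) or upper quartiles (0.0472), in DESeq2 (0.0246), under quantile normalization (0.0381) and in the fit of these 8 libraries alone (0.0319).

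Most transcription factors of the list did not pass. Cebpg, a C/EBP protein that pairs with ATF4, rose by a log2 of 0.29 (adjusted p = 0.03). Cebpb had 105, 113, 109 and 111 normalized reads in EtOH Vehicle and 165 to 307 in EtOH IMC, without overlap, at a log2 difference of 0.93 and an adjusted p of 0.0645, and passed in the fit of these 8 libraries alone (0.00228). Herpud1 passed in that fit (log2 0.46, adjusted p = 0.0478) and under quantile normalization (0.0436). Atf3 had a log2 difference of 0.62 (-0.07 to 1.30), Jdp2 0.76 (-0.10 to 1.62), Nupr1 0.41 (-0.21 to 1.04), Ddit3 0.09 (-0.26 to 0.44) and Atf5 -0.27 (-0.54 to 0.01). Ddit3, known as CHOP and the usual marker of severe stress of the endoplasmic reticulum, thus had an interval on both sides of 0. The calls of Slc3a2, Slc6a9, Slc38a2, Sesn2, Ppp1r15a, Asns and Shmt2 held without any single library. The call of Xpot (log2 0.32, adjusted p = 0.0485) was lost without any 1 library other than 4, 8, 9 and 15, with an adjusted p of up to 0.162, and under 4 other settings. Cebpg lost its call without libraries 1, 5, 7, 11 or 15 (adjusted p up to 0.0938) and under upper-quartile scaling (0.0505), Mthfd2 without 3, 5, 9 or 11 (up to 0.0959), and Gpt2 without 3, 7 or 15 (up to 0.0776) and under quantile normalization (0.0747).

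In pair-fed mice fewer members moved. With IMC 2 of 32 were higher and 2 lower, against 4.32% of all tested genes higher and 5.17% lower, a share near that of the genome as a whole. The median log2 difference was 0.15, against -0.00092 for all tested genes. Without Pair IMC library 4 or 6 or Pair Vehicle library 10 the count was 2.

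Aldh1l2 changed most, from 6.69, 4.89, 4.69 and 6.11 normalized reads in Pair Vehicle to 28.5, 19.5, 32.1 and 15.1 in Pair IMC. The groups were far apart (3.64-fold, log2 1.86, SE 0.39, adjusted p = 0.00688), on a gene of few reads. Xpot, which carries tRNA out of the nucleus, rose from 1164, 1217, 1388 and 1301 to 1736, 1949, 1867 and 1392 (1.36-fold, adjusted p = 0.0196). Its lowest IMC value lay just above its highest vehicle value, and the call was lost without library 4, 6 or 10 (adjusted p up to 0.0732). Shmt2 fell from 2372, 2495, 2407 and 2045 to 1792, 1505, 1607 and 1819 (log2 -0.47, SE 0.10, adjusted p = 0.00658), again with every IMC liver below every vehicle liver. Shmt2 was therefore lower with IMC on both diets, each against its own vehicle group.

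Eif4ebp1, a repressor of cap-dependent translation, fell from 299.8, 363, 266 and 277 to 262, 236, 198 and 214 (log2 -0.40, SE 0.12, adjusted p = 0.0362). The groups did not overlap but nearly touched, and the call was lost without library 4, 6, 8, 10 or 12 (adjusted p up to 0.118) and in the fit of these 8 libraries alone (0.0844). The genes that led the comparison in ethanol-fed mice had smaller differences here. Asns had a log2 difference of 0.47 (-0.36 to 1.30), Sesn2 of 0.02 (-0.31 to 0.35), Slc3a2 of 0.26 (0.05 to 0.48, adjusted p = 0.113) and Slc6a9 of 0.73 (0.22 to 1.23, adjusted p = 0.0632). Slc6a9 passed in DESeq2 (log2 0.71, adjusted p = 0.0342). Several regulators had negative differences in pair-fed mice without passing the test: Atf3 at -0.59, Ddit3 at -0.39, Atf5 at -0.34 and Atf4 at -0.29.

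**Figure D2:**
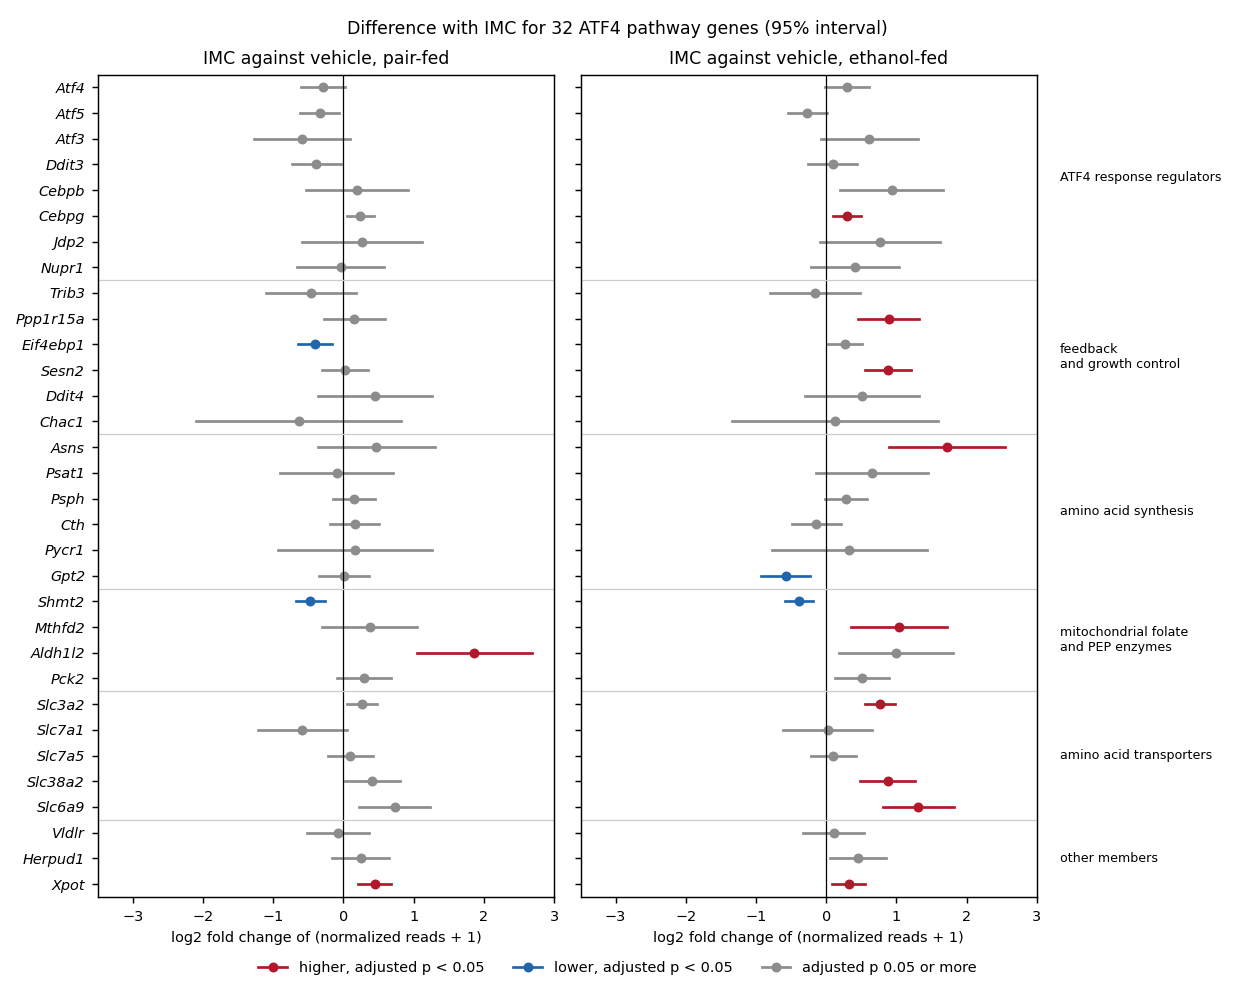
Log2 fold change with IMC (horizontal axis) of the 32 tested members, grouped by role, in pair-fed mice on the left and ethanol-fed mice on the right. Points are limma estimates, lines are 95% intervals and colour marks an adjusted p under 0.05. In ethanol-fed mice 9 members are higher and 2 lower, in pair-fed mice 2 and 2.

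Whether the IMC effect differed between the diets was tested directly. No member passed for the difference, ethanol-fed minus pair-fed, in limma, against 1.11% of all tested genes in either direction. At an unadjusted p under 0.05 there were 8 of 32 members and 1913 of 12537 genes. Asns, among the 8, reached the minimum for testing only with its EtOH IMC libraries. edgeR with either normalization also called 0 members and DESeq2 called 3, Eif4ebp1, Sesn2 and Slc3a2. The median difference of the members was 0.46, against -0.0012 for all tested genes, and 28 of 32 lay above 0. Without Asns and Pycr1 the median was also 0.46. Over the 18 members with a mean of at least 100 normalized reads it was 0.26. All 8 transcription regulators and all 6 feedback genes were among the 28.

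The members with the smallest adjusted p in limma were Eif4ebp1 (log2 0.67, 0.33 to 1.02, adjusted p = 0.0555), Sesn2 (0.87, 0.40 to 1.33, adjusted p = 0.0699) and Slc3a2 (0.50, 0.20 to 0.81, adjusted p = 0.102). Eif4ebp1 passed without Pair IMC library 2 (log2 0.74), Sesn2 without EtOH IMC library 9 (1.01) and Slc3a2 without Pair Vehicle library 10 (0.59). The 95% intervals of Asns (0.08 to 2.42), Atf3 (0.23 to 2.17) and Ppp1r15a (0.12 to 1.35) also lay above 0 before adjustment. That of Asns was partly set by the filter, which it reached only with its EtOH IMC libraries. That of Gpt2 lay below 0, from -1.08 to -0.08. For Shmt2 the difference was 0.08 (-0.21 to 0.37) and for Xpot -0.12 (-0.46 to 0.21).

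Averaged over both diets, IMC was accompanied by 11 higher and 2 lower members, against 14.1% of all tested genes higher and 14% lower. This comparison is balanced over low and high library numbers. The median log2 difference was 0.26, against values near 0 for all tested genes. The 11 were Aldh1l2 (1.43, adjusted p = 0.000996), Asns (1.09, adjusted p = 0.0074), Slc6a9 (1.02, adjusted p = 0.000321), Mthfd2 (0.71, adjusted p = 0.0283), Slc38a2 (0.64, adjusted p = 0.00178), Ppp1r15a (0.52, adjusted p = 0.0127), Slc3a2 (0.51, adjusted p = 7.89e-05), Sesn2, Pck2, Xpot and Cebpg. Shmt2 (-0.43, adjusted p = 0.00024) and Atf5 (-0.30, adjusted p = 0.0196) were the lower ones. Pck2 lost its call without library 1, 6 or 15 (adjusted p up to 0.0587), Mthfd2 without 3, 4, 8, 9 or 10 (up to 0.0599), and Atf5 under quantile normalization (0.0823). Asns, among the 11, reached the minimum for testing only with its EtOH IMC libraries. Because the averaged effect draws on the ethanol-fed mice too, it shares their values and is no separate evidence.

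The remaining comparisons concern ethanol. They share livers with those above, so the values are given side by side. The 16 libraries had been scaled within each diet when deposited, which placed all genes 0.187 higher on the log2 scale in ethanol-fed mice. The values here were rescaled over all 16, and each direction below is relative to the median gene.

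In vehicle mice ethanol was accompanied by 1 higher and 3 lower members of 32, against 6.33% of all tested genes higher and 5.54% lower, at a median log2 difference of 0.10, and of -0.0019 over the 18 members with a mean of at least 100 normalized reads. On the deposited scale the members split into 3 higher and 1 lower, beside 2801 higher and 199 lower among all genes tested on it. Without EtOH Vehicle library 5 the count was 2 rather than 4. Cth was the higher one, at 4876, 5241, 5074 and 4371 normalized reads in Pair Vehicle and 9031, 8033, 7177 and 7286 in EtOH Vehicle. All ethanol livers were above all pair-fed livers (1.61-fold, log2 0.69, SE 0.17, adjusted p = 0.0134).

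Herpud1 was 3427, 5820.3, 3939 and 3690.3 in Pair Vehicle and 2183, 2609, 1801 and 2653 in EtOH Vehicle. Its groups did not overlap, and the log2 difference was -0.85 (SE 0.19, adjusted p = 0.00888). Cebpg fell from 1032, 1001, 994 and 1089 to 773, 922, 727 and 789 (log2 -0.36, SE 0.09, adjusted p = 0.0177), also without overlap. Eif4ebp1, at 202, 239.5, 204 and 241 in EtOH Vehicle, was below each Pair Vehicle liver (log2 -0.44, adjusted p = 0.0211). On the deposited scale Cebpg and Eif4ebp1 kept their direction and lost their calls (adjusted p = 0.186 and 0.127). Cebpg also lost its call without library 5 (0.0643), and Eif4ebp1 without library 1, 5 or 12 (up to 0.0683). None of the amino acid carriers passed, with log2 differences from -0.39 for Slc38a2 to 0.21 for Slc6a9. Ddit3 was called lower under quantile normalization (adjusted p = 0.0397), in the fit of these 8 libraries alone (0.0495) and in DESeq2 (0.0472). Chac1 was called lower in that fit (0.0356) and in DESeq2 (0.0454). Shmt2 was called higher under quantile normalization (0.0483) and, with Pck2, on the deposited scale (0.00278 and 0.0174).

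In IMC mice 10 members were higher with ethanol and 2 lower, against 7.86% of all tested genes higher and 8.57% lower, at a median log2 difference of 0.34. On the deposited scale 14 were higher and 0 lower in limma, beside 3183 higher and 441 lower among all genes tested on it. The test of whether the ethanol effect differed between IMC and vehicle mice is the same contrast as the difference between the IMC effects, which no member passed in limma. The count leaned on single libraries: it was 4 without EtOH IMC library 15, 6 without library 4, 6 or 9, and 7 without library 2, in place of 12. The higher members were Sesn2, Slc3a2, Atf3, Pck2, Shmt2, Psat1, Asns, Slc6a9, Nupr1 and Mthfd2, and the lower ones Herpud1 and Cebpg.

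Sesn2 held 125, 135, 117 and 103 normalized reads in Pair IMC, below the 171 to 286 of EtOH IMC (1.93-fold, log2 0.95, SE 0.16, adjusted p = 0.000751). Slc3a2, at 489, 575, 560.4 and 461 in Pair IMC, was likewise below all EtOH IMC livers (1.40-fold, adjusted p = 0.00424). Both held without any single library.

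Atf3, an early stress transcription factor, was 22.3, 43.1, 17.6 and 34.6 in Pair Vehicle and 17.3, 23.4, 26.1 and 10.1 in Pair IMC. In EtOH Vehicle it was 32.3, 23.5, 34.8 and 50.4, and in EtOH IMC 73.2, 35.6, 59.7 and 49.2. The IMC groups were separate (2.80-fold, log2 1.49, SE 0.33, adjusted p = 0.0055), whereas the vehicle groups overlapped (log2 0.29, -0.40 to 0.97). Nupr1, a small stress-induced nuclear protein, rose 1.98-fold (adjusted p = 0.0307) with overlapping groups, and its call was lost without any of libraries 4, 6, 8, 9, 11, 13 and 15 (adjusted p up to 0.0877).

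The remaining 6 were 5 enzymes and the glycine transporter Slc6a9. Psat1, the aminotransferase of serine synthesis, was 5.08, 12.7, 9.02 and 7.56 normalized reads in Pair IMC and 26.7, 20.3, 21.9 and 22.7 in EtOH IMC. These did not overlap (2.59-fold, log2 1.37, SE 0.38, adjusted p = 0.0207), though library 5 of EtOH Vehicle, at 31.4, exceeded all of them, and the call was lost without library 2 or 9 (adjusted p up to 0.0647). Pck2 went from 88.5, 68.2, 89.2 and 84.4 to 128, 106, 130.4 and 166 (1.59-fold, adjusted p = 0.0184), without overlap.

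Pck2 lost this call without library 4 or 15 (adjusted p up to 0.0689). Shmt2 was higher in every EtOH IMC liver than in every Pair IMC liver (log2 0.35, SE 0.10, adjusted p = 0.0199) and lost its call without library 4, 6, 11 or 15 (up to 0.0596). Asns rose 2.59-fold against Pair IMC livers of 5.08, 8.77, 13.03 and 13.9 (adjusted p = 0.0246) and lost its call without library 2, 4, 9 or 15 (up to 0.0791). Asns reached the minimum for testing only with its EtOH IMC libraries, so its place among the higher members was partly set by the filter. Slc6a9 (1.73-fold, adjusted p = 0.0314) was lost without library 6, 8, 13 or 15 (up to 0.107). Mthfd2 (2.03-fold, adjusted p = 0.0391) was lost without libraries 2, 4, 6, 9, 11, 13 or 15 (up to 0.11).

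Herpud1 was again lower with ethanol among IMC mice (log2 -0.64, adjusted p = 0.0289), as was Cebpg (log2 -0.31, adjusted p = 0.0306). Both kept their direction and lost this call on the deposited scale (adjusted p = 0.0844 and 0.374). Herpud1 lost it also without library 2, 6, 9 or 15 (up to 0.0956), and Cebpg without library 2, 4, 6, 9, 13 or 15 (up to 0.0914).

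**Figure D3:**
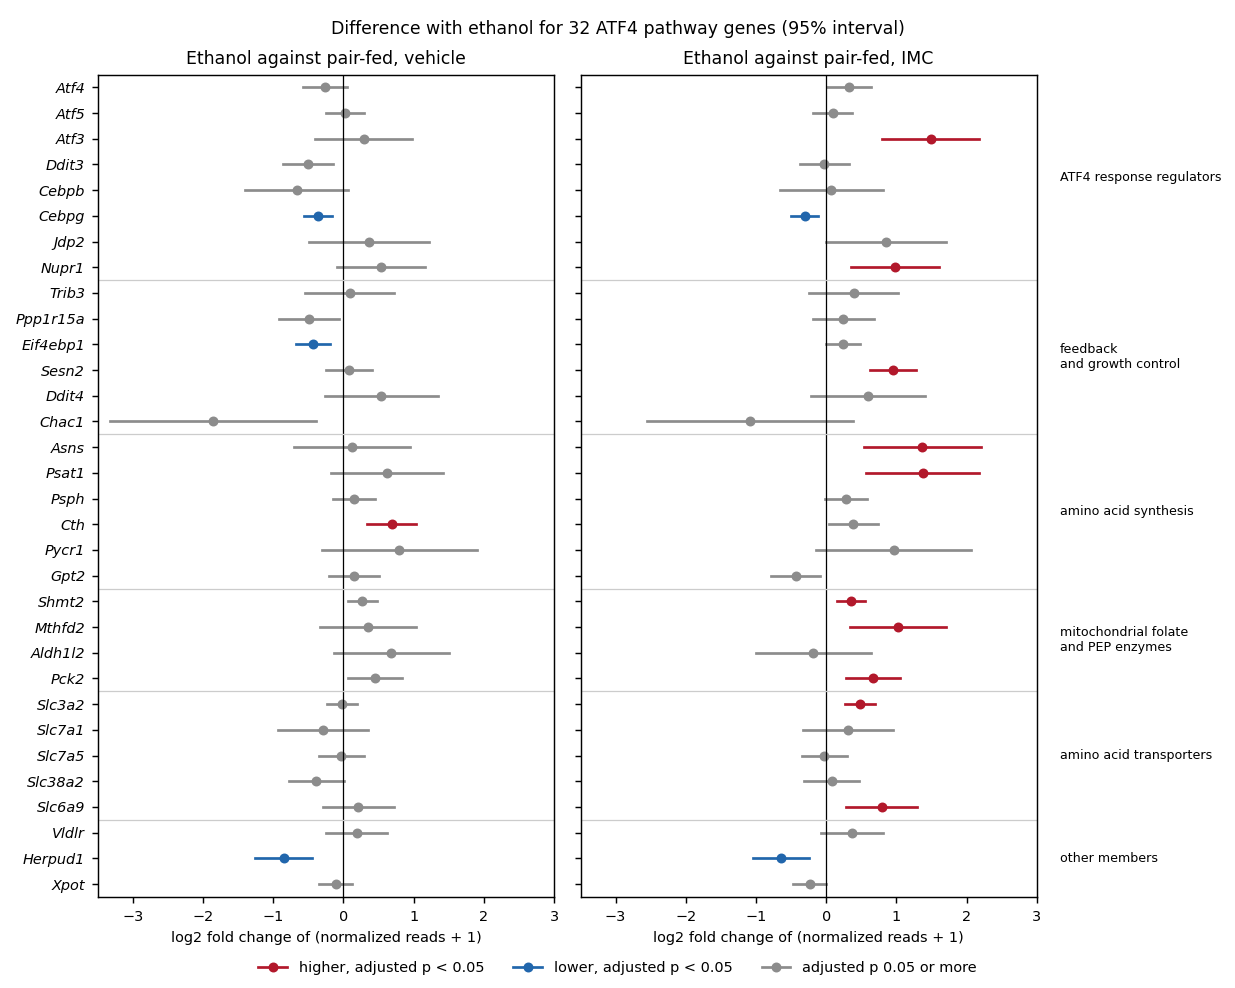
Log2 fold change with ethanol (horizontal axis) of the 32 tested members, grouped by role, in vehicle mice on the left and IMC mice on the right. Points are limma estimates, lines are 95% intervals and colour marks an adjusted p under 0.05. In vehicle mice 1 member is higher and 3 lower, in IMC mice 10 and 2.

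Averaged over both treatments, ethanol was accompanied by 10 higher and 3 lower members, against 12.9% of all tested genes higher and 13.1% lower. This comparison is balanced over low and high library numbers but not over odd and even ones. The median log2 difference was 0.23, and 0.04 over the 18 members with a mean of at least 100 normalized reads. On the deposited scale the split was 17 and 2, beside 4730 higher and 492 lower among all genes tested on it. Psat1 (0.997, adjusted p = 0.0117), Atf3 (0.89, adjusted p = 0.00928), Nupr1 (0.76, adjusted p = 0.0132), Pck2 (0.56, adjusted p = 0.00426), Cth (0.53, adjusted p = 0.00301), Sesn2 (0.52, adjusted p = 0.00261) and Shmt2 (0.31, adjusted p = 0.00326) rose and kept their calls without any single library. Herpud1 (-0.75, adjusted p = 0.00074) and Cebpg (-0.33, adjusted p = 0.00133) fell, the latter losing its call on the deposited scale alone.

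Mthfd2, Slc6a9 and Slc3a2 rose as well. Mthfd2 lost its call without library 1, 2, 5, 6, 7, 9, 10 or 14 (adjusted p up to 0.0723), Slc6a9 without 3, 5, 7, 8, 10, 12, 13 or 15 (up to 0.0775) and Slc3a2 without 1, 2, 8 or 10 (up to 0.0539). Asns did not pass here in limma but was called higher in edgeR with TMM (0.0379) or upper quartiles (0.0348) and in DESeq2 (0.0336). Chac1 was the remaining lower member (log2 -1.47, adjusted p = 0.0358). Its values in Pair Vehicle were 21.2, 123, 22.3 and 27.5 and in EtOH Vehicle 9.87, 8.55, 6.78 and 12.1 normalized reads. Those groups did not overlap, but the averaged call was lost without library 1, 2, 3, 5, 8, 9, 12, 13 or 15 (adjusted p up to 0.0766) and in edgeR and DESeq2.

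Over all 7 comparisons 21 of the 32 tested members passed at least once, against 50.4% of all tested genes. The 11 that did not were Atf4, Cebpb, Ddit3, Jdp2, Trib3, Ddit4, Psph, Pycr1, Slc7a1, Slc7a5 and Vldlr, the last a lipoprotein receptor. Of these, Cebpb, Ddit3 and Psph passed under other settings, and Atf4, Ddit4, Jdp2, Pycr1 and Vldlr passed for ethanol on the deposited scale. Of the untested pair, Phgdh, the first enzyme of serine synthesis, ranged from 1.17 to 13.6 normalized reads, with its highest value in EtOH IMC library 11. Stc2, a secreted glycoprotein, ranged from no read in 3 livers, a count that allows up to 3 reads, to 7.12. Exons of 11 members overlap another gene, among them Shmt2, Aldh1l2, Slc6a9, Ppp1r15a, Pck2, Cebpg and Atf5, mostly on the opposite strand. The strand setting of the counting is not given in the sources used here, so reads of the overlapping genes cannot be told apart.

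Other genes of the pathway were taken from lists written with the members, likewise with earlier results of these data known. The cytosolic aminoacyl-tRNA synthetases, which load amino acids onto tRNA and many of which ATF4 is known to induce, had the largest share called higher with IMC in ethanol-fed mice among the lists outside the members. Here 11 of 20 were higher and 0 lower, against 10.4% and 11.1% of all tested genes, at a median log2 difference of 0.34. Mars rose from 505 ± 58.5 to 802 ± 93.1 normalized reads (log2 0.67, adjusted p = 0.00216), Vars from 303 ± 31.8 to 448 ± 37.8 (0.57, adjusted p = 0.00085), Hars from 309 ± 32.4 to 458 ± 33.6 (0.57, adjusted p = 0.00235) and Nars from 1284 ± 48.3 to 1715 ± 156 (0.41, adjusted p = 0.00104; SD, n = 4). In pair-fed mice 2 of 20 were higher, Mars and Iars, against 4.32% of all tested genes. Averaged over both diets 13 were higher and 0 lower, against 14.1% and 14%. Mars and Ddit3 overlap on opposite strands.

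The machinery that senses stress upstream, the eIF2 kinases with the eIF2 and eIF2B subunits, had 6 of 16 genes higher and 0 lower with IMC in ethanol-fed mice, against 10.4% and 11.1% of all tested genes. In pair-fed mice 1 was higher and 0 lower, against 4.32% and 5.17%. Averaged over both diets 4 were higher and 0 lower, against 14.1% and 14% of all tested genes. The highest-ranked were the eIF2 subunit Eif2s2 (762 ± 43.8 to 1087 ± 45.4 normalized reads, SD, n = 4; log2 0.51, adjusted p = 0.00181), the eIF2B subunit Eif2b4 (0.50, adjusted p = 0.00332), Impact, an inhibitor of the amino acid sensing kinase (0.55, adjusted p = 0.0101), and the kinase of the endoplasmic reticulum Eif2ak3 (0.60, adjusted p = 0.0256). Eif2ak4, the kinase that senses uncharged tRNA, had a log2 difference of 0.00 (adjusted p = 0.99). It was named after its value was seen.

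Of 22 further genes of the integrated stress response 3 were higher and 3 lower with IMC in ethanol-fed mice, 13.6% each way and near the 10.4% and 11.1% of all tested genes. Averaged over both diets 3 were higher and 6 lower, against 14.1% and 14% of all tested genes. Fgf21, a liver hormone of nutrient stress, rose from 15.3 ± 10.04 to 50.7 ± 27.0 (log2 1.70, adjusted p = 0.0143), and Mthfd1l, a mitochondrial formate producer, from 10.7 ± 8.15 to 31.3 ± 3.85 (log2 1.81, adjusted p = 0.00992). Shmt1, the cytosolic counterpart of Shmt2, fell from 3102 ± 355 to 2226 ± 78.9 (log2 -0.47, adjusted p = 0.0014), and the sestrin Sesn3 fell from 827 ± 64.8 to 505 ± 86.7 (log2 -0.73, adjusted p = 0.0023; SD, n = 4). Fgf21 was also higher with IMC in pair-fed mice, and Shmt1 lower. With ethanol Fgf21 was lower in vehicle mice, in IMC mice and on average.

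Chaperones of the endoplasmic reticulum and XBP1 targets, the neighbouring branches of the unfolded protein response, had 2 of 17 higher and 1 lower with IMC in ethanol-fed mice. Among all tested genes the shares were 10.4% higher and 11.1% lower. The chaperone Hsp90b1 fell from 7536 ± 401 to 5954 ± 185 (log2 -0.34, adjusted p = 0.00532), while the cochaperone Dnajb9 (0.93, adjusted p = 0.00642) and the sensor Atf6 (0.41, adjusted p = 0.00978) rose. Xbp1 had a log2 difference of 0.40 and an adjusted p of 0.0618. The share of this list called in either direction was near that of all tested genes.

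**Figure D4:**
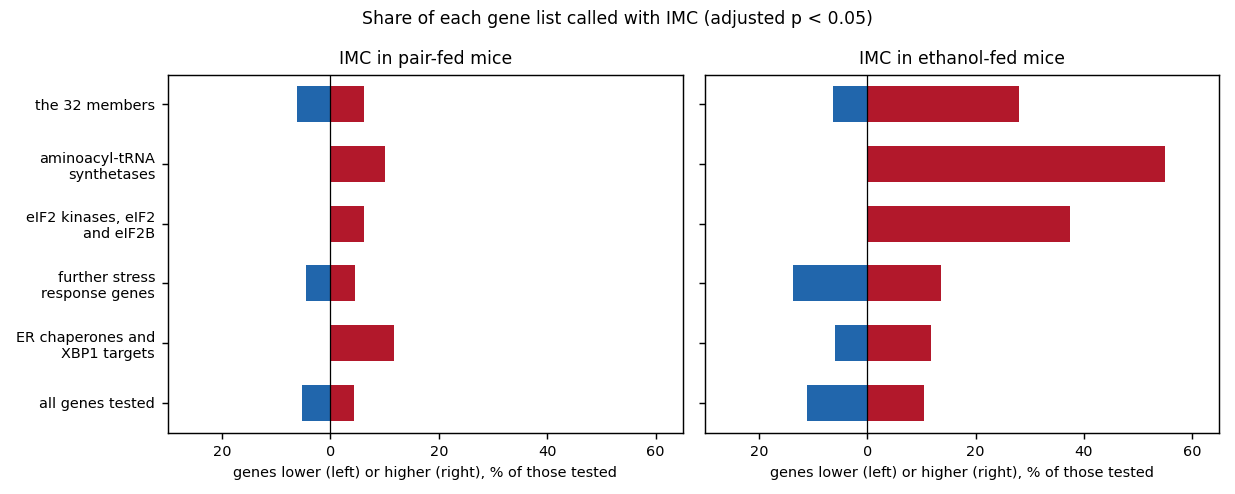
Share of each gene list (horizontal axis, percent of the genes tested) with an adjusted p under 0.05 for IMC against vehicle, higher to the right and lower to the left, in pair-fed mice and ethanol-fed mice. In ethanol-fed mice 11 of 20 aminoacyl-tRNA synthetases, 6 of 16 eIF2 genes and 9 of 32 members are higher, against 10.4% of all tested genes.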

How the data were processed

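The authors sequenced liver RNA (TruSeq directional kit, HiSeq4000) with reads of 100 bases, single-end in the methods and paired-end in the labels. The processing notes name Trim Galore, FastQC, STAR, edgeR and mm10, and the methods name UCSC annotation and upper-quantile normalization. The counting program is not given in the sources used here. The deposited signal values are the authors' counts per gene over a library-specific size factor. In units of the smallest step of a library, which was 0.906 to 1.18, all values were within 0.01 of a whole number. In EtOH IMC library 15 the step was 1.01, so whole reads are least certain there.

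The table had 27212 rows for 24082 Ensembl identifiers, each used once. Values were rescaled by a median ratio over all 16 libraries. Genes with at least 10 in at least 4 libraries were tested on log2(value + 1) in limma 3.58.1 (R 4.3.3), with a mean per group over all 16 libraries, a mean-variance trend and two-sided Benjamini-Hochberg adjusted p over all 12537 genes; fold changes on this scale understate those of low genes. Alternatives used other pseudocounts, filters and scalings, edgeR 4.0.16 and DESeq2 1.42.0 on the recovered reads, and each library left out. Replicate pairs differed by a chi-square of at least 5.88 per gene, so none was a duplicate. Each sample is labelled as a separate library, and p-values measure the spread between these. On simulated data the fit was checked for recovery of known changes. Promoter windows are RefSeq's (GRCm38.p6), and exon overlaps come from GENCODE annotation of GRCm38. The 95% intervals of log2 differences come from limma and measure the spread between libraries; the limit given for a count of 0 covers counting error only.

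The members and the other gene lists were chosen with earlier results of these data known. Values for every mouse are given for Atf4 and, in each comparison of 2 groups and the difference between the IMC effects, the up to 6 members with the smallest adjusted p under 0.05. From each other list at most 4 genes are named, those with the smallest adjusted p for IMC in ethanol-fed mice, apart from a few named for their place in a comparison.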

Additional observations from a re-analysis of the deposited data

Results flagged for a closer look

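Among 136 sets of 4 livers (34 members in 4 groups), 12 had a liver whose gap to its nearest neighbour exceeded the share of the set's whole range (Dixon's critical value) that chance alone passes in about 1 in 20 sets. The livers concerned were spread over 8 libraries. Pair Vehicle library 12 was marked for 3 genes, with Cebpb at 494, Chac1 at 123 and Psph at 59.7 normalized reads, each the highest of its group, and library 16 of the same group for Psat1 at 18.3. In Pair IMC, library 4 was high for Ddit3 at 100.4 and library 2 for Nupr1 at 30.5. In EtOH Vehicle, library 5 was high for Psat1 at 31.4. In EtOH IMC, library 9 was high for Jdp2 at 51.6 and low for Trib3 at 83.5, library 11 was high for Chac1 at 55.1, and library 15 was low for Slc7a1 at 18.9 and for Vldlr at 453. The causes were not tested.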

How the results depend on the processing

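No member changed direction among its called differences. Of 57 calls of a member in a comparison, 38 were kept under all alternative settings, 34 with each library left out in turn, and 32 under both. With the libraries of the comparison alone, 691 genes were called for IMC in pair-fed mice rather than 1189; the difference between the IMC effects and the averaged effects had no such fit. For that difference, all genes called numbered 80 without the filter, 82 without the mean-variance trend, 338 in DESeq2 and 72 in edgeR without library 15, in place of 139, and members called 1 with a mean of at least 100 and 3 in DESeq2. With a mean of at least 100, 6 of the 18 members kept were called for ethanol in IMC mice and 7 on average. These counts stood in place of 12 and 13 of 32. In edgeR without library 15 the counts for ethanol in IMC mice were 6 members and 1352 genes. On the deposited scale ethanol was called for 3000 genes in vehicle mice (2801 higher and 199 lower), 3624 in IMC mice (3183 and 441) and 5222 on average (4730 and 492), in place of 1488, 2060 and 3266, and the medians of the members became 0.28, 0.53 and 0.42. With a mean of at least 100, which kept 18 members, these medians were -0.0019, 0.29 and 0.04 in place of 0.10, 0.34 and 0.23, and that of the difference between the IMC effects was 0.26 in place of 0.46. For IMC in pair-fed mice edgeR with upper quartiles split all calls into 427 higher and 777 lower.

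With 1 library left out, members called ranged from 2 to 6 for IMC in pair-fed mice, 8 to 11 in ethanol-fed mice, 0 to 1 for the difference, 2 to 6 for ethanol in vehicle mice, 4 to 13 in IMC mice, 12 to 16 for IMC averaged and 10 to 15 for ethanol averaged. All genes called ranged from 537 to 1443, 1987 to 2823, 54 to 164, 803 to 1595, 1368 to 2213, 2955 to 3740 and 2736 to 3455 in the same order. The cause was not tested. Asns, Psat1, Mthfd2, Aldh1l2, Pycr1, Phgdh and Stc2 had few reads, where counting error limits what can be told apart.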
